A study of Mus musculus with 8 samples.

Results

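Fabp4, Fabp5, Fabp3, Lpl, Lipa, Plin2, Plin3, Pnpla2 and Cpt1a encode proteins that take fatty acids from triglyceride to their use in the cell, and this account follows the transcripts of these 9 genes. They were taken by symbol from a table of 27679 genes, in which all 9 were listed. The table covers 8 RNA-seq libraries of cultured mouse megakaryocytes, the large polyploid marrow cells that shed platelets. Of these, 4 came from culture in a hydrogel, a three-dimensional milieu of 2% methylcellulose with a Young modulus (stiffness) of 30 to 60 Pa, and 4 from culture in liquid medium. The series asks what mechanical confinement does to these cells. Both groups started from bone marrow of wild-type C57BL/6 mice depleted magnetically of lineage-positive cells, were grown for 3 days, and were enriched for large, mature cells on a gradient of bovine serum albumin rather than sorted by a marker. The submitters call the 4 cultures of each kind independent biological replicates. PolyA RNA was made into stranded libraries, which held 27012172 to 37059314 counts in hydrogel and 28825468 to 49281611 in liquid.

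Lipoprotein lipase releases fatty acids from circulating triglyceride at the cell surface, and lysosomal acid lipase does so from the lipoprotein lipids that a cell has taken up. Inside the cell the small fatty acid binding proteins carry the released acids through the cytosol, the perilipins coat the droplets in which surplus is stored as triglyceride and cholesterol ester, adipose triglyceride lipase opens those droplets again, and carnitine palmitoyltransferase admits the acids to mitochondria for oxidation. Macrophages are known for high expression of several of these genes, and fatty acid uptake has been described in maturing megakaryocytes.

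The label was checked against lists of cell type markers, drawn up with earlier results of these data known. All 14 megakaryocyte markers had enough reads to be tested, and together they took 26795 to 39081 CPM (counts scaled by library size) in the hydrogel libraries, against 32948 to 53832 CPM in the liquid ones. Of these markers, 10 fell and 0 rose, beside 14.1% lower and 15.1% higher among all tested genes. Their median log2 change, hydrogel over liquid, was −0.60. Markers of monocytes and macrophages were present in every library as well. They summed to 5900 to 13181 CPM in hydrogel and 1484 to 3249 CPM in liquid. Of these, 20 of 24 rose, beside 15.1% of all tested genes, with a median log2 change of 2.10. Of the 12 adipocyte markers 9 were listed, 7 of them with too few reads to be tested, among them Adipoq (adiponectin) and Plin1, the perilipin of fat cells, each with 1 read over the hydrogel libraries and 0 over the liquid ones. The list summed to 29.0 to 43.3 CPM in hydrogel and 16.0 to 22.3 CPM in liquid. The 2 markers tested were Pparg, which rose, and Lipe, which did not pass, both described below; neither is confined to fat cells, and their median log2 change was 0.87. In a bulk library, more cells of a type and more RNA per cell cannot be told apart.

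One library of each group lay between the others, and it touches most of the results that follow. The leading principal component held 65.1% of the variance. On it, hydrogel 1 lay at 16.8 and the rest of its group at 46.0 to 52.3, while liquid 2 lay at −17.0 and the rest of its group at −53.1 to −47.4. Summed macrophage markers stood at 5900 CPM in hydrogel 1 against 10641 to 13181 CPM in the other hydrogel libraries. In liquid 2 they stood at 3249 CPM against 1484 to 1805 CPM in the other liquid libraries. The change of each of the 9 genes is therefore also given without both libraries where that moves its fold by over 1.5 times. Both were picked from these data for lying nearest the other group. Leaving them out thus enlarges, by construction, a difference that follows this pattern.

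Of the 9 genes, 8 rose and 0 fell in hydrogel, and Pnpla2 alone did not pass. The 9 were chosen with earlier results of these data known, so the shares of all tested genes given here are a setting and not a test of the set. Calls were made with edgeR's quasi-likelihood test on all 13845 genes with enough reads, at a Benjamini-Hochberg adjusted p of 0.05, and this rule called 29.3% of all tested genes, 15.1% higher and 14.1% lower. The median log2 change of the 9 was 1.97, beside −0.01 for all tested genes. For 7 of the 9, every hydrogel library lay above every liquid library, which held for 14.6% of all tested genes. With Pnpla2, which lay wholly below by a small margin that depends on the scaling, 8 had groups that did not overlap, as 28.4% of all tested genes did. A rise of at least 4-fold that passed the test was found for 2.76% of tested genes, and Fabp4, Fabp5, Lpl and Fabp3 were among them. All 9 passed the filter on low counts, Fabp3 only through its level in hydrogel.

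Upstream sequence is shown for the 2 genes of this set that carry a nuclear receptor half-site and rose (Plin2 and Cpt1a). It is also shown for a lipase that rose (Lipa) and for the lipase that did not (Pnpla2). Each run is the 250 bases before the transcription start, 5′ to 3′ in the gene's direction, from RefSeq's GRCm38.p6 annotation, which is an older build than the one the reads were aligned to. Capitals mark 2 motifs, the half-site AGGTCA that nuclear receptors such as the PPARs bind, which is read as TGACCT on the other strand, and the CCAAT box, read as ATTGG on the other strand.
Plin2, chr4:86670060-86670309, minus strand: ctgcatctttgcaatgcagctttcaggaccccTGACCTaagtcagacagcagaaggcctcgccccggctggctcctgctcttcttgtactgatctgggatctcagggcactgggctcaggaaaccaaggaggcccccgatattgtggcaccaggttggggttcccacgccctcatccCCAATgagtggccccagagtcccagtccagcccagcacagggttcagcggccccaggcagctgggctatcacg
Cpt1a, chr19:3323051-3323300, plus strand: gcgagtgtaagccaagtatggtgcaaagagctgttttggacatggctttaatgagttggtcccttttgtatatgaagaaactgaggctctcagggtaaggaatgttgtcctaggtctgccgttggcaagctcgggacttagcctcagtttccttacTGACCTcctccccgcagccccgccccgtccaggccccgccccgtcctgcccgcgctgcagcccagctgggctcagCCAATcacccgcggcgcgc
Lipa, chr19:34527475-34527724, minus strand: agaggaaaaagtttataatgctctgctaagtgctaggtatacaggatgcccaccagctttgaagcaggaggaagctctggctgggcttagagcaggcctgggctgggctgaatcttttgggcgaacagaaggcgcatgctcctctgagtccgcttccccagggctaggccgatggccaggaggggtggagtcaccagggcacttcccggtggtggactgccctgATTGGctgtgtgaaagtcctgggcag
Pnpla2, chr7:141454938-141455187, plus strand: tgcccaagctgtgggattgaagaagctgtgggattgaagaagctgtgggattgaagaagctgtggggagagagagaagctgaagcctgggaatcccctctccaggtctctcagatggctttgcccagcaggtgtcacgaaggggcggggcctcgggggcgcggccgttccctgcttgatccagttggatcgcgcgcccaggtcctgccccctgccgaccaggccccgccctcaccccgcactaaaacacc
Windows were found for 6 of the 9 genes; Fabp4, Fabp5 and Lpl were not matched. The half-site lay at −218 in Plin2 and at −94 in Cpt1a, so in 2 of 6 windows, beside 14% of all 32841 windows of this length searched on both strands. A CCAAT box lay at −73 in Plin2, −75 in Plin3, −26 in Lipa and −19 in Cpt1a, so in 4 of 6, beside 33.9% of all windows. The E-box CACGTG, the core of the sites bound by the lysosomal regulator TFEB, was in 0 of 6 and in 6.02% of all windows. These are matches of letters and were not tested as binding sites.

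The fatty acid binding proteins held both the largest and the least abundant change of the set. Fabp4 (ENSMUSG00000062515) encodes the adipocyte and macrophage binding protein, also called aP2. It stood at 26.9, 49.5, 56.1 and 42.2 CPM in hydrogel libraries 1 to 4, against 2.54, 7.07, 3.61 and 3.67 CPM in liquid libraries 1 to 4. The lowest hydrogel library was still well above the highest liquid one. Its log2 change was 3.38 ± 0.32 (SE; adjusted p = 0.000201, edgeR), a 10.4-fold rise that ranked 56th among the 13845 tested genes.

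Fabp5 (ENSMUSG00000027533), the epidermal binding protein that macrophages also express, had 57.5, 123, 121 and 87.7 CPM in hydrogel and 16.0, 22.2, 16.1 and 11.5 CPM in liquid. The groups did not overlap. Its log2 change was 2.57 ± 0.26 (adjusted p = 0.000266, edgeR), or 5.93-fold. Fabp5 has a processed pseudogene in the annotation, Fabp5l2, and reads that match both may have been divided or dropped in counting.

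Fabp3 (ENSMUSG00000028773), the heart and muscle binding protein, was close to the limit of detection. It had 12, 25, 24 and 32 reads in the hydrogel libraries and 3, 10, 9 and 4 in the liquid libraries, which is 0.329, 0.781, 0.876 and 1.04 CPM against 0.0963, 0.329, 0.198 and 0.106 CPM. Hydrogel 1 and liquid 2 were level, so the groups met. The log2 change of 2.03 ± 0.48 passed (adjusted p = 0.0114, edgeR), and without both of these libraries it was 2.69. The 3′ end of Fabp3 shares 81 of its 823 exon bases with Zcchc17 on the opposite strand, which had 47.1 ± 3.16 CPM in hydrogel and 43.6 ± 1.19 CPM in liquid (SD, n = 4 each). The strand setting of the counting is not given in the sources used here, and Fabp3 also has a processed pseudogene, so its low level is uncertain. Zcchc17 itself did not pass (log2 change 0.11, adjusted p = 0.240, edgeR).

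The other 3 listed genes of the family did not reach a testable level. Fabp2, the intestinal form, had 10 reads over the hydrogel libraries and 5 over the liquid ones, Fabp7, the brain form, had 10 and 10, and Fabp12 had 0 and 2. Fabp1, Fabp6, Fabp9 and Pmp2 were not analysed here.

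Both lipases that act on lipid from outside the cell rose. Lpl (ENSMUSG00000015568), lipoprotein lipase, had 298, 673, 699 and 744 CPM in hydrogel and 51.4, 214, 83.7 and 127 CPM in liquid. All hydrogel libraries were above all liquid libraries, and hydrogel 1 and liquid 2 came nearest to each other. The log2 change was 2.34 ± 0.43 (adjusted p = 0.00305, edgeR), 5.06-fold, and it was 3.02 without both of these libraries. Lipa (ENSMUSG00000024781), lysosomal acid lipase, had 228, 439, 493 and 391 CPM in hydrogel and 63.8, 157, 76.9 and 97.8 CPM in liquid. Its groups did not overlap either, and the same pair of libraries lay nearest. Lipa rose 3.93-fold, with a log2 change of 1.97 ± 0.30 (adjusted p = 0.00133, edgeR).

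The droplet coat genes rose by unequal amounts. Plin2 (ENSMUSG00000028494), the perilipin found on droplets of most cells that store lipid, had 77.4, 134, 150 and 121 CPM in hydrogel and 35.4, 45.8, 37.7 and 40.6 CPM in liquid. The 4 liquid libraries lay close together while hydrogel 1 stayed below the other hydrogel libraries. Its log2 change was 1.60 ± 0.18 (adjusted p = 0.000408, edgeR), 3.02-fold. Plin3 (ENSMUSG00000024197), which is cytosolic until it moves to nascent droplets, had 36.5, 54.5, 53.1 and 49.3 CPM in hydrogel and 26.7, 34.1, 25.1 and 26.8 CPM in liquid. The gap between the groups was narrow, with hydrogel 1 just above liquid 2. Plin3 rose 1.72-fold (log2 change 0.78 ± 0.14, adjusted p = 0.00274, edgeR).

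Pnpla2 (ENSMUSG00000025509), adipose triglyceride lipase, which starts the breakdown of droplet triglyceride, went against the rest of the set. It had 101, 101, 103 and 103 CPM in hydrogel and 111, 105, 119 and 113 CPM in liquid. In these scaled values every hydrogel library lay below every liquid library, as in 13.8% of tested genes, by a small margin. By library totals alone the groups met. Hydrogel 4, with 3195 reads of 29529922, was then level with liquid 1, with 3472 of 32093811. The log2 change of −0.14 ± 0.06 did not pass (adjusted p = 0.104, edgeR). With upper-quartile scaling between libraries it did (−0.19, adjusted p = 0.0301), and likewise without liquid 2 (−0.17, adjusted p = 0.0489). With library totals alone the log2 change was −0.07 (adjusted p = 0.376, edgeR), and with no low-count filter −0.14 (adjusted p = 0.311, edgeR).

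Cpt1a (ENSMUSG00000024900), the carnitine palmitoyltransferase of the outer mitochondrial membrane, had 75.8, 73.2, 88.2 and 75.8 CPM in hydrogel and 55.5, 49.0, 63.2 and 55.7 CPM in liquid. The groups did not overlap, and liquid 2 was the lowest library of all. Cpt1a rose 1.40-fold (log2 change 0.49 ± 0.09, adjusted p = 0.00331, edgeR).

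**Figure D1:**
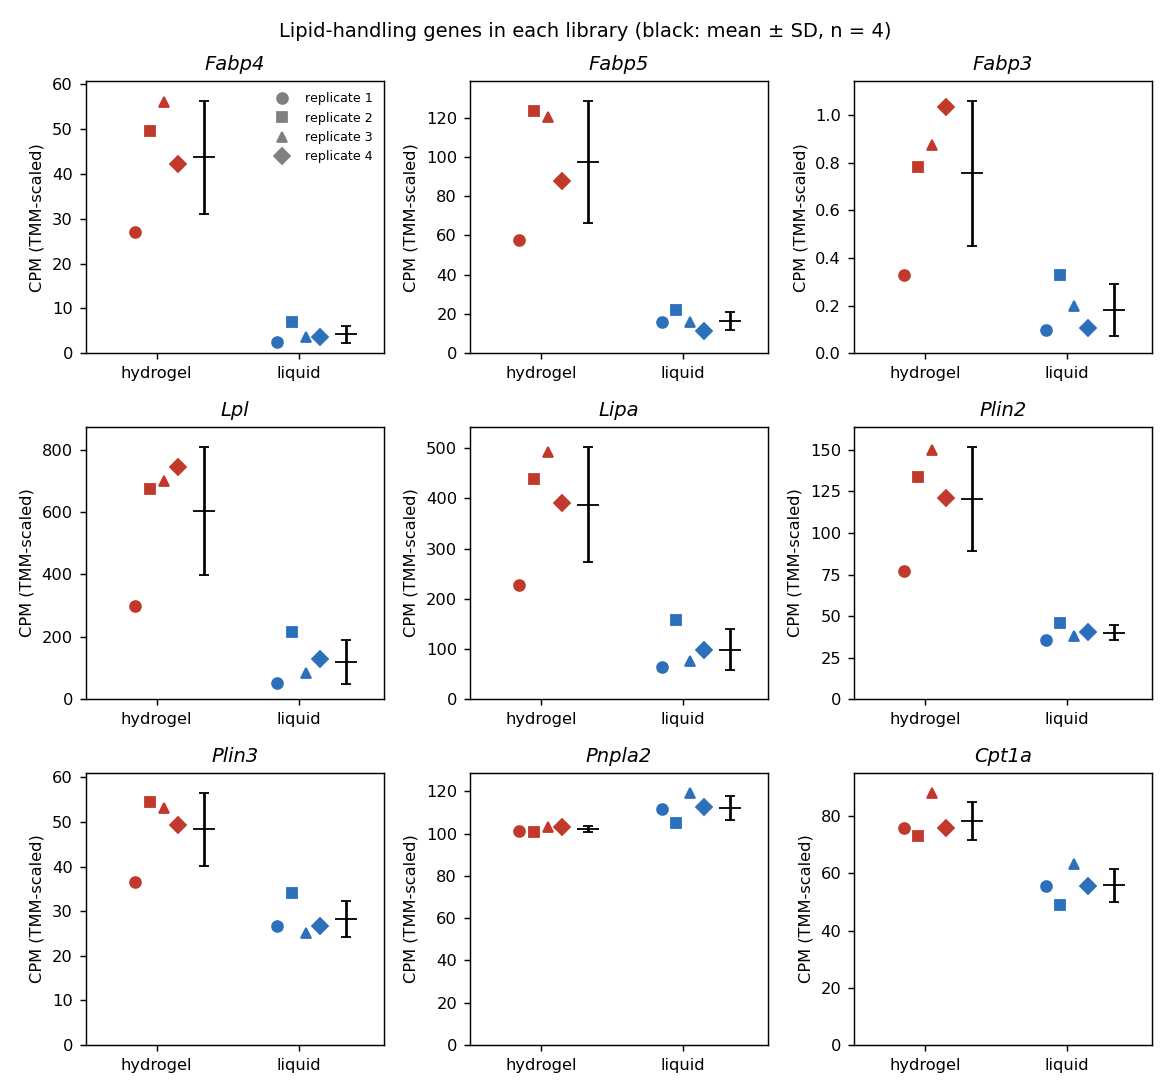
Level of each of the 9 genes in CPM (vertical axes start at 0, own scale per gene) in the 4 hydrogel libraries (red) and the 4 liquid libraries (blue), with the marker shape giving the replicate number and the black bar the mean ± SD. Hydrogel lies above liquid for 7 genes, the groups meet for Fabp3, and Pnpla2 lies at 101 to 103 CPM in hydrogel and 105 to 119 CPM in liquid.

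Per kilobase of the longest coding transcript of each gene, the order of the 9 genes differed between the cultures. In hydrogel, Lpl led with a level of 147 ± 50 RPKM (CPM divided by transcript length; SD, n = 4), followed by Lipa at 131 ± 38.6 and Fabp5 at 98.6 ± 31.5 RPKM, and the ranges of these 3 overlapped. Plin2 at 63.9 ± 16.5, Fabp4 at 48.7 ± 14.0 and Pnpla2 at 38.9 ± 0.486 RPKM came next, with the range of Fabp4 reaching over the levels of Plin2 and Pnpla2. Plin2, at up to 79.5 RPKM, also reached into the ranges of Lpl, Lipa and Fabp5. Fabp4, at up to 62.6 RPKM, reached into that of Fabp5. Cpt1a at 18.1 ± 1.56 RPKM was above Plin3 at 13.3 ± 2.25 RPKM without overlap, and Fabp3 was last at 0.918 ± 0.368 RPKM.

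In liquid, Pnpla2 led with a level of 42.7 ± 2.20 RPKM, ahead of Lipa at 33.3 ± 13.8 and Lpl at 29.0 ± 17.2 RPKM. The ranges of both reached past that of Pnpla2, since liquid 2 had 52.8 RPKM of Lipa and 52.0 RPKM of Lpl. Lipa, down to 21.5 RPKM, and Lpl, down to 12.5 RPKM, also reached into the ranges of Plin2 and Fabp5. Lpl reached into that of Cpt1a as well. Plin2 at 21.1 ± 2.37, Fabp5 at 16.6 ± 4.46 and Cpt1a at 12.9 ± 1.35 RPKM overlapped from each to the next. Plin3 at 7.73 ± 1.10 and Fabp4 at 4.71 ± 2.20 RPKM also overlapped, and Fabp3 stood at 0.221 ± 0.131 RPKM. By this measure Fabp4 was the second lowest of the 9 in liquid and the fifth highest in hydrogel. That shift rests on the length used, which was 0.896 kb for Fabp4, 4.317 kb for Cpt1a and 3.645 kb for Plin3. All annotated exons together span 4.489, 7.642 and 3.786 kb. With those lengths the mean of Fabp4 would lie below those of Cpt1a and Plin3 in hydrogel as well, and Cpt1a would not lie above Plin3.

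Ratios within a library do not depend on the scaling between libraries, and 3 were compared with an exact permutation test over the 70 assignments of 4 libraries to hydrogel. Reads of Plin2 per read of Plin3 were 2.12, 2.45, 2.83 and 2.46 in hydrogel and 1.32, 1.34, 1.50 and 1.52 in liquid. Reads of Fabp4 per read of Fabp5 were 0.468, 0.401, 0.465 and 0.481 in hydrogel and 0.159, 0.319, 0.225 and 0.320 in liquid. Reads of Lipa per read of Pnpla2 were 2.25, 4.36, 4.79 and 3.78 in hydrogel and 0.573, 1.49, 0.645 and 0.869 in liquid. For each ratio the lowest hydrogel library exceeded the highest liquid library.

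The ratios were 1.73-fold, 1.84-fold and 4.39-fold higher in hydrogel, as log2 differences of 0.79, 0.88 and 2.13. The two-sided exact p was 0.0286 for each, also after Benjamini-Hochberg adjustment over the 3, and that is the smallest value this design can give. The pairs were chosen with earlier results known, among them the larger rise of Fabp4 than of Fabp5. These p-values are therefore not independent evidence of any of the 3 differences. For Lipa over Pnpla2 the p was fixed in advance, since every hydrogel library lay above liquid for Lipa and below it for Pnpla2. The liquid libraries held between 0.319 and 0.320 reads of Fabp4 per read of Fabp5 in replicates 2 and 4 and less in the other two, so that ratio varied more within liquid than within hydrogel. Without hydrogel 1, 3 or 4 its exact p was 0.0857, with log2 differences of 0.86, 0.87 and 0.85.

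**Figure D2:**
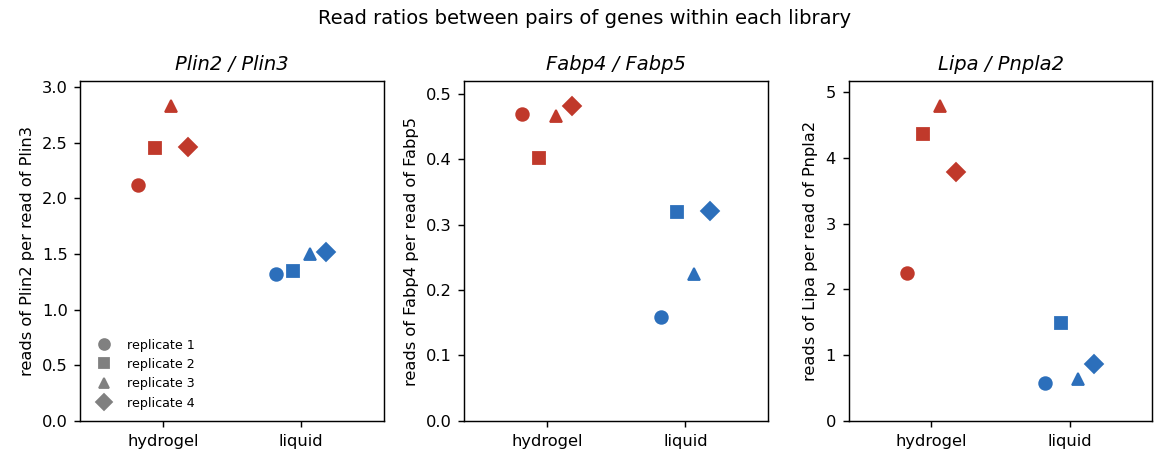
Reads of one gene per read of another within each library, for Plin2 over Plin3, Fabp4 over Fabp5 and Lipa over Pnpla2 (vertical axes start at 0, red for hydrogel, blue for liquid, marker shape for the replicate number). All hydrogel points lie above all liquid points in each panel, and hydrogel 1 at 2.25 and liquid 2 at 1.49 are the nearest pair for Lipa over Pnpla2.

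Libraries hydrogel 1 and liquid 2 were the extremes of their groups for 7 of the 9 genes, hydrogel 1 as the lowest hydrogel library and liquid 2 as the highest liquid library. For Lpl, hydrogel 1 differed from the mean of the other 3 hydrogel libraries by −1.24 on the log2 scale, and liquid 2 from the other 3 liquid libraries by 1.29. For Lipa these values were −0.95 and 0.98 and for Fabp4 −0.87 and 1.11. The summed macrophage markers given above moved the same way in both libraries. They were smaller for Plin2 (−0.80 and 0.27) and Plin3 (−0.52 and 0.38). Pnpla2 (−0.01 and −0.12) and Cpt1a (−0.06 and −0.25) did not share the pattern, and in both liquid 2 was the lowest liquid library.

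The macrophage score of a library, the mean of its macrophage markers' log2 CPM after each was centred on its own mean, was 0.43, 1.36, 1.34 and 1.42 in hydrogel and −1.67, −0.26, −1.49 and −1.14 in liquid. Culture accounted for 84.9% of its variance, so the 2 are largely confounded (variance inflation factor 6.61). Once the score entered the model as a covariate, Fabp4 was the only one of the 9 still called, with a log2 change of 1.33 (adjusted p = 0.0325, edgeR). Fabp5 had 1.22 (adjusted p = 0.169), Cpt1a 0.73 (0.0918), Plin2 0.52 (0.389), Pnpla2 −0.01 (0.976), Plin3 −0.09 (0.875), Lipa −0.10 (0.862), Lpl −0.56 (0.313) and Fabp3 −0.69 (0.771), all as log2 changes with edgeR's adjusted p. The fitted change of Cpt1a was larger than without the score, and those of the other 7 genes that had passed were smaller or negative. Over all genes 474 were called in this fit, where 4052 were called without it. The log2 changes of Lpl, Lipa, Plin3 and Fabp3 were near or below 0 in it, whereas those of Fabp5, Plin2 and Cpt1a stayed positive and missed the threshold.

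**Figure D3:**
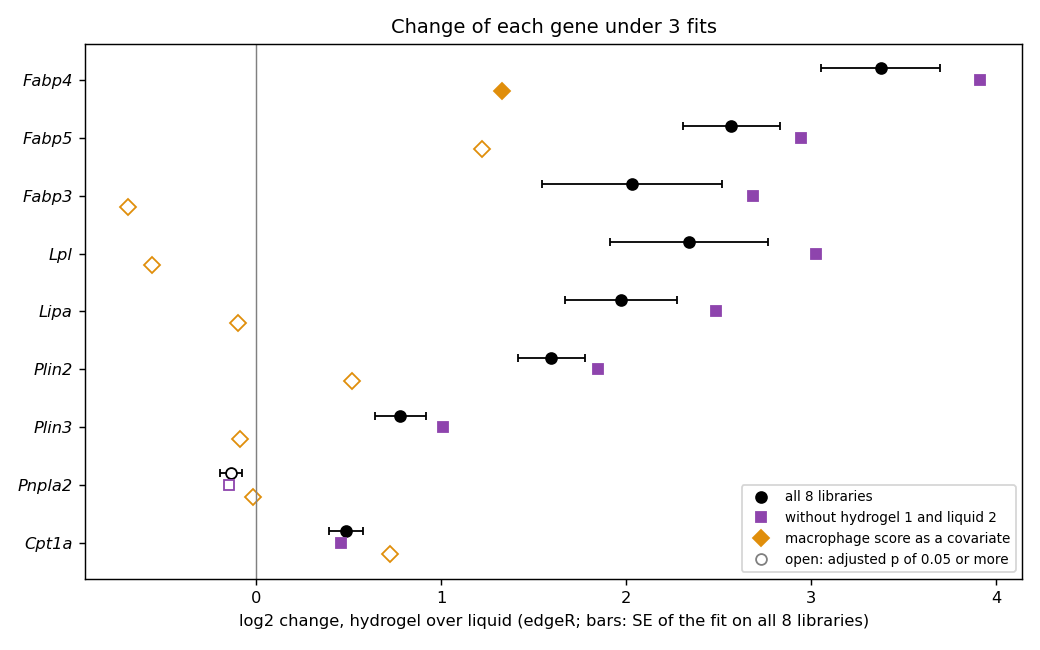
Log2 change, hydrogel over liquid, of each gene under 3 edgeR fits: all 8 libraries (black, bars are the SE), without hydrogel 1 and liquid 2 (purple squares), and corrected for the macrophage score (orange diamonds); open symbols have an adjusted p of 0.05 or more. Without both libraries 8 genes pass, with Fabp4 at 3.91 and Lpl at 3.02. These libraries were picked for lying nearest the other group, so leaving them out by itself enlarges such changes. With the covariate Fabp4 alone passes, at 1.33. The covariate shares 84.9% of its variance with culture, so the effects of the score and of culture are largely confounded in that fit.

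**Figure D4:**
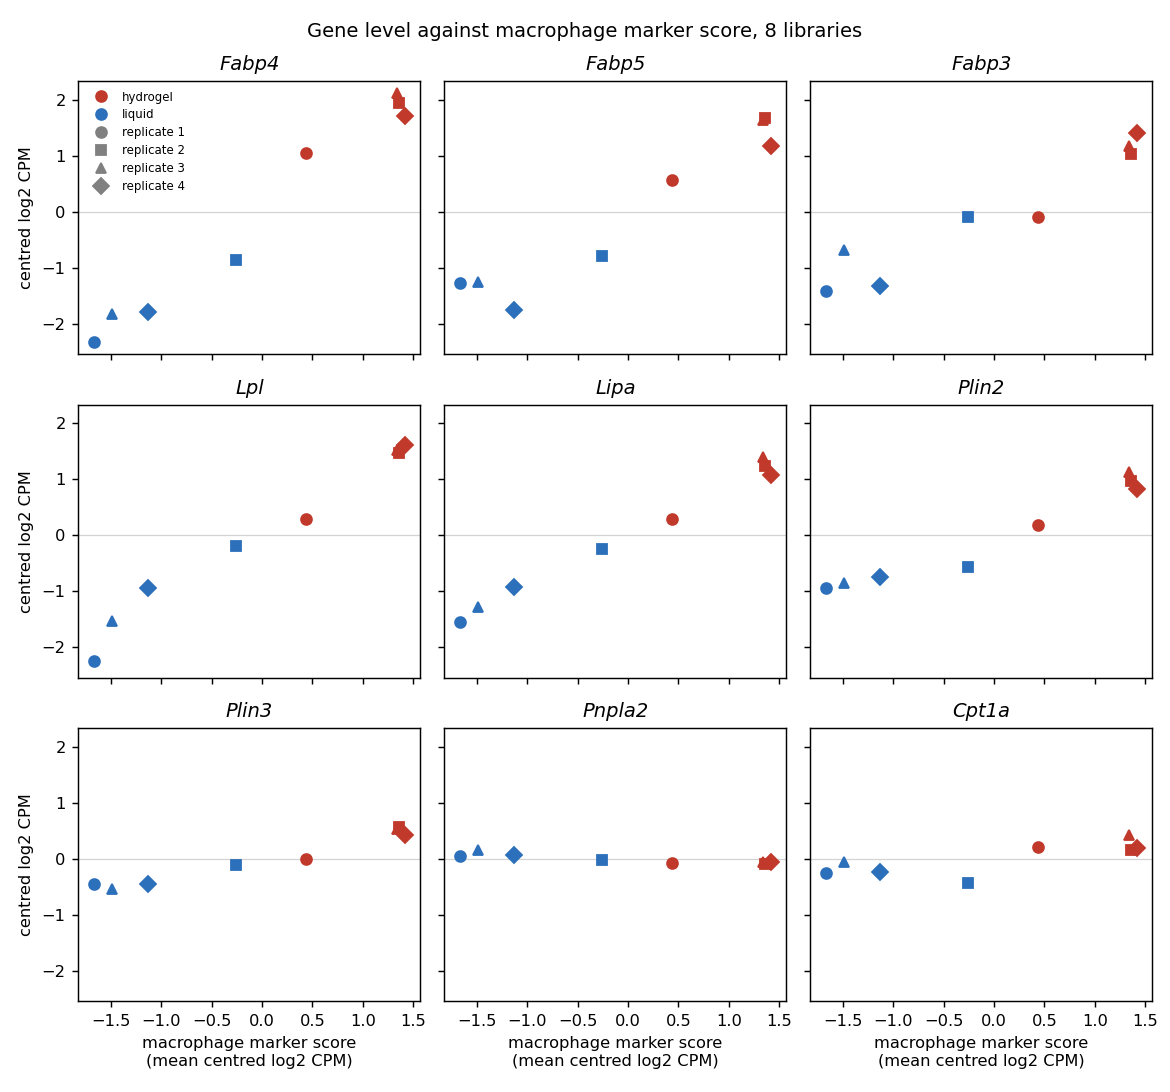
Centred log2 CPM of each gene (vertical) against the macrophage score of the library (horizontal) in the 8 libraries, red for hydrogel and blue for liquid. Hydrogel 1 at a score of 0.43 and liquid 2 at −0.26 lie between the other libraries for Lpl, Lipa and Fabp4, while Pnpla2 stays flat and Cpt1a separates by culture.

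The 9 genes also differed in which of their number they resembled. As the root mean square difference of centred log2 CPM over the 8 libraries, the nearest pair was Plin3 and Cpt1a at 0.298, and Lipa lay 0.333 from Plin2, 0.336 from Fabp3 and 0.340 from Lpl. Fabp4 and Fabp5 were 0.526 apart, and the farthest pair was Fabp4 and Pnpla2 at 1.83. The measure also brings genes of small change together, as Cpt1a lay 0.322 from Pnpla2, whose change had the opposite sign.

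Among all tested genes the same measure gave the nearest patterns. Lpl was nearest to Adgre1, the macrophage marker F4/80, at 0.126, then to Cdk18 and Sdc3. Lipa was nearest to C3ar1, the receptor of complement fragment C3a, at 0.0891, then to Sdc1 and Nek6. Fabp4 was nearest to Fam20c, a kinase of secreted proteins, at 0.179, then to Lilr4b and Ms4a6d, and Fabp5 to Tmem268 at 0.170, then to Tnfaip2 and Mamdc2. Fabp3 was nearest to Rapgef5 at 0.175, then to Icam1 and Tmem144.

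Plin2 was nearest to Fth1, the ferritin heavy chain, at 0.0785, then to Pld3 and Anxa4, and Plin3 to Socs6 at 0.0741, then to Adam15 and Camkk2. Cpt1a was nearest to Msn, the gene of moesin, at 0.0616, then to Mtm1 and, at 0.0664, to Ppard, the nuclear receptor PPAR-delta. Pnpla2 was nearest to Asb8 at 0.0267, then to Icmt and Sgta, none of which passed. A small value here means only that a gene's level moved by a like amount in each library.

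Genes around the 9 were described from lists of their pathways, which were also drawn up with earlier results of these data known. Lysosomal lipid handling moved most, with 19 of 23 tested genes higher and 0 lower and a median log2 change of 0.61, beside 15.1% higher among all tested genes and their median of −0.01. Psap, the precursor of the saposins that help degrade sphingolipids, averaged 5953 ± 1870 CPM in hydrogel and 1157 ± 441 CPM in liquid (SD, n = 4 each; log2 change 2.36, adjusted p = 0.000683, edgeR). Npc1, which exports the cholesterol that Lipa releases, rose 2.57-fold, its soluble partner Npc2 2.05-fold, the alpha-galactosidase gene Gla 2.84-fold and the galactosylceramidase gene Galc 2.01-fold. The summed level of the list was 5413 to 10505 CPM in hydrogel and 2483 to 3399 CPM in liquid, lowest in hydrogel 1 and highest in liquid 2 within their groups. Much of that sum was Psap, at 3382 to 7753 CPM in hydrogel and 898 to 1813 CPM in liquid. Psap was itself lowest in hydrogel 1 and highest in liquid 2, so the sum does not show this pattern for the other genes of the list. With the macrophage score as a covariate 1 of the 23 was called higher.

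Droplet genes other than the perilipins named were mixed, with 6 of 20 tested higher and 2 lower, beside 15.1% and 14.1% of all tested genes, and a median log2 change of 0.10. With upper-quartile scaling 5 were lower, and under the macrophage covariate 1 was higher and 0 lower. The largest rise was that of Soat1, which esterifies cholesterol for storage, at 185 ± 60.1 CPM in hydrogel and 42.1 ± 14.1 CPM in liquid (log2 change 2.14, adjusted p = 0.000765, edgeR). Its relative Soat2 rose 1.95-fold to 6.64 ± 0.790 CPM in hydrogel, Hsd17b11, a droplet-associated dehydrogenase, 2.25-fold, and Vps13c, a lipid transfer protein, 1.77-fold. The triglyceride synthases did not pass. Dgat1 had 10.7 ± 0.734 CPM in hydrogel and 13.8 ± 2.39 CPM in liquid (adjusted p = 0.0571, edgeR), and was called lower with DESeq2 (adjusted p = 0.0386), with upper-quartile scaling (0.0354) and without liquid 3 (0.0397). Dgat2 had 3.62 ± 0.941 CPM in hydrogel and 2.49 ± 2.04 CPM in liquid (adjusted p = 0.449, edgeR). Without liquid 2, Dgat2 passed with a log2 change of 1.27 (adjusted p = 0.0295). The other perilipins were at the floor: Plin4 had 0 reads over the hydrogel libraries and 2 over the liquid ones, and Plin5 had 0 and 3. Of the 2 genes of this list that were lower, 0 remained called without hydrogel 2, 3 or 4 or without liquid 1 or 4.

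Partners of the lipases had 4 of 17 tested higher and 2 lower, beside 15.1% and 14.1% of all tested genes, with a median log2 change of 0.04. Without hydrogel 2, 3 or 4 or liquid 3 or 4 the number lower was 1, and under the macrophage covariate 0 were higher and 0 lower. Abhd5, also CGI-58, the protein that activates adipose triglyceride lipase, had 53.5 to 65.8 CPM in hydrogel and 30.1 to 34.0 CPM in liquid, a 1.80-fold rise (log2 change 0.85 ± 0.08, adjusted p = 0.000200, edgeR), although its target Pnpla2 did not pass. The inhibitors of that lipase did not pass either: G0s2 had 0.598 ± 0.101 CPM in hydrogel and 0.691 ± 0.713 CPM in liquid, and Hilpda had 4.27 ± 0.600 CPM in hydrogel and 4.15 ± 0.150 CPM in liquid. The next enzymes of lipolysis, Lipe (hormone-sensitive lipase, adjusted p = 0.156) and Mgll (monoglyceride lipase, adjusted p = 0.872), missed the threshold too. Lipe had 11.2 ± 1.95 CPM in hydrogel and 8.45 ± 2.42 CPM in liquid, and without liquid 2 it passed with a log2 change of 0.62 (adjusted p = 0.0114, edgeR).

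For lipoprotein lipase, Sel1l, which helps it mature in the endoplasmic reticulum, rose 1.25-fold to 242 ± 12.8 CPM in hydrogel, against 193 ± 13.5 CPM in liquid. Angptl4, its secreted inhibitor, had 1.91 ± 0.387 CPM in hydrogel and 1.69 ± 0.347 CPM in liquid and did not pass (adjusted p = 0.606, edgeR). Lipn, a lipase of the acid lipase family, rose 6.59-fold and Lipg, endothelial lipase, fell 3.85-fold, both with group means under 1 CPM. Gpihbp1 and Apoc3 were not analysed here.

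Fatty acid uptake and activation had 3 of 12 tested genes higher and 1 lower, beside 15.1% and 14.1% of all tested genes, with a median log2 change of 0.02. The number lower was 2 with upper-quartile scaling or without liquid 2, and 0 when liquid 1, liquid 3, hydrogel 2 or hydrogel 3 was left out. With the macrophage score in the model 1 was higher. Cd36, the fatty acid translocase of macrophages and platelets, had 63.0 ± 16.0 CPM in hydrogel and 27.3 ± 15.7 CPM in liquid, and the groups overlapped. Its log2 change of 1.21 passed (adjusted p = 0.0299, edgeR), but the call was lost without hydrogel 2, 3 or 4 and without liquid 1, 3 or 4, with adjusted p of up to 0.0801. With the macrophage score as a covariate it was called in the opposite direction (−1.19, adjusted p = 0.0276). The transport gene Slc27a1 rose 3.45-fold with overlapping groups. Acsbg1, an acyl-CoA synthetase, rose 6.33-fold without overlap but at a low level, with 3.34 ± 0.625 CPM in hydrogel and 0.520 ± 0.117 CPM in liquid. Slc27a6 fell 2.23-fold at about 1 CPM, a call lost without hydrogel 2 or 3 or liquid 1 or 3 (adjusted p of up to 0.0774). Acsl1, the main long-chain acyl-CoA synthetase of many tissues, had 57.8 ± 1.45 CPM in hydrogel and 56.3 ± 2.48 CPM in liquid (adjusted p = 0.674).

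The carnitine shuttle and beta-oxidation list did not follow Cpt1a. Of its 33 tested genes, 4 were higher and 6 lower, shares of 12.1% and 18.2% that are near those of all tested genes, with a median log2 change of −0.14. Cpt2, which acts after Cpt1a on the inner membrane, had 69.8 ± 7.53 CPM in hydrogel and 101 ± 22.0 CPM in liquid (log2 change −0.53, adjusted p = 0.0246, edgeR), and lost its call without hydrogel 2, 3 or 4 and without liquid 1, 3 or 4 (adjusted p of up to 0.0757). Acadm, the medium-chain dehydrogenase, fell to 106 ± 7.62 CPM in hydrogel, against 145 ± 17.7 CPM in liquid (adjusted p = 0.00661), and Hadh fell 1.44-fold. The carnitine carrier gene Slc25a20 and the very-long-chain dehydrogenase gene Acadvl did not pass (log2 changes −0.19 and −0.24, adjusted p = 0.294 and 0.0548, edgeR). Acadvl was called lower with upper-quartile scaling (adjusted p = 0.0307), with at least 1 CPM in 4 libraries (0.0471), without hydrogel 1 (0.0219) and without liquid 2 (0.0290), and Slc25a20 without liquid 2 (0.0169). Of the peroxisomal genes, Acox3 and the transporter gene Abcd3 rose 1.64-fold and 1.65-fold. The number that were lower was 12 with upper-quartile scaling, 3 with library totals alone, 11 without liquid 2 and 3 without hydrogel 2.

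Among PPAR receptors, coactivators and classic targets, 5 of 12 tested genes rose and 0 fell, beside 15.1% and 14.1% of all tested genes, with a median log2 change of 0.27. The number that rose was 3 without hydrogel 2, 3 or 4 or liquid 1 or 3, and 1 fell without liquid 2. Under the macrophage covariate 1 was higher and 1 lower. Pparg, the PPAR of fat cells and macrophages, for which Fabp4 is a known target, had 25.0 ± 4.25 CPM in hydrogel and 9.96 ± 0.852 CPM in liquid (log2 change 1.33, adjusted p = 0.000230, edgeR). Rxra, the partner receptor, had 26.9 ± 7.65 CPM in hydrogel and 4.38 ± 2.72 CPM in liquid, a 6.17-fold rise. Ppard had 160 ± 3.37 CPM in hydrogel and 115 ± 15.4 CPM in liquid (adjusted p = 0.00393), and Ucp2 rose 1.28-fold, a call lost without hydrogel 2, 3 or 4 or liquid 1 or 3 (adjusted p of up to 0.0672). Ppara was not analysed here.

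**Figure D5:**
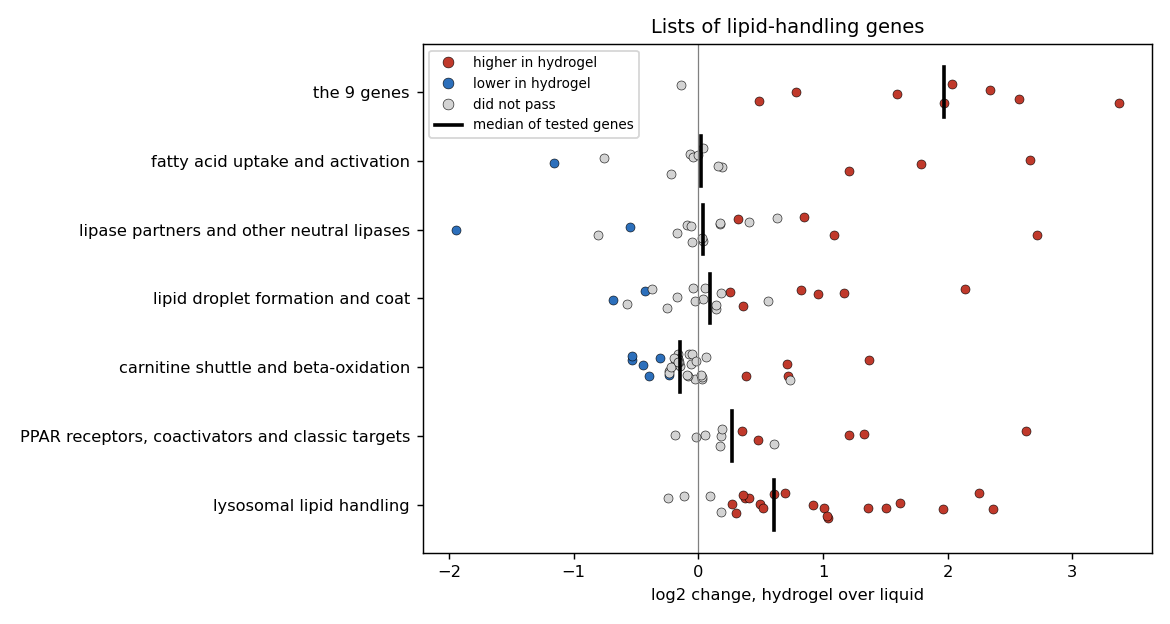
Log2 change, hydrogel over liquid, of each tested gene of the 9 and of 6 lists around them (red passed and higher, blue passed and lower, grey did not pass; black bar the median). The medians are 1.97 for the 9 genes, 0.61 for lysosomal lipid handling, 0.27 for the PPAR list and between −0.14 and 0.10 for the other 4 lists.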

How the data were processed

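Expression was measured by RNA-seq in 8 libraries. The values are raw gene counts as deposited by the authors. Libraries were stranded and polyA-selected, per the labels' protocols. The submitters' processing notes name bcl2fastq, STAR 2.7.10b, HTSeq 0.13.5 and build GRCm39. Neither annotation release nor strand setting is given in the sources used here. Titles gave the group and replicate number. Of the table, 2 text lines without a gene were dropped and 0 sample columns stayed unused. Symbols came from a table of gene identifiers, which matched 26534 of 27679; no gene was named from the 11 symbols that several identifiers share.

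Counts were filtered with filterByExpr by group, scaled by TMM and tested in edgeR 4.0.16 under R 4.3.3, with no term besides culture. Each SE was obtained as the log2 change over the root of its F statistic. TMM factors also scale the CPM, and log2 CPM use a prior count of 2. RPKM divide CPM by the longest protein-coding transcript of each gene in GENCODE M21, of the GRCm38 build, from which no coordinate was used but the overlap of exons. Ratios of reads had 0.5 added to each count for the exact permutation test. The edgeR script was tested on simulated counts. Alternatives were scaling by upper quartiles, by DESeq2's size factors or by library totals, other filters, DESeq2 1.42.0, limma-voom (limma 3.58.1), the replicate block, an adjusted p of 0.01, each library left out, hydrogel 1 and liquid 2 left out together, and the macrophage score as a covariate.

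The 9 genes, the gene lists, the ratios and the last 2 alternatives were chosen with earlier results of these data known, among them the larger rise of Fabp4 than of Fabp5. Named were the 9 genes, up to 4 passing genes of each pathway list by smallest adjusted p, a panel of 20 genes whether or not they passed, and for each of the 9 the 3 tested genes nearest in pattern (without pseudogenes, Rik clones or predicted genes). Outside this rule, further family members, marker genes and genes that overlap one of the 9 were named after their values were seen. Python 3.11.15, pandas 2.3.3, numpy 2.4.6, scipy 1.17.1 and matplotlib 3.10.9 were used.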

Additional observations from a re-analysis of the deposited data

Results flagged for a closer look

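The level of Lpl in hydrogel 1, 298 CPM, stood apart from the other 3 hydrogel libraries, at 673 to 744 CPM. The gap to the nearest of them was 0.841 of the group's whole range, over Dixon's 95% critical value of 0.829 for 4 libraries. It was the only such value among 24 groups examined, where chance gives about 1 in 20. Summed macrophage markers were lowest in the same hydrogel library, at 5900 CPM against 10641 to 13181 CPM; their part in the level of Lpl was not tested.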

How the results depend on the processing

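The 8 genes that rose numbered 8 under each scaling, with DESeq2, with limma-voom, without any 1 library and without hydrogel 1 and liquid 2 together. That pair was picked for lying nearest the other group, so the fit without it is not an independent check. At an adjusted p of 0.01 and with at least 1 CPM in 4 libraries 7 rose, since Fabp3 then missed the threshold or was not tested. With the macrophage score as a covariate 1 rose. The number that fell was 0, but 1 (Pnpla2) with upper-quartile scaling, and 0 to 1 when 1 library was left out. Over all genes 4052 were called, 2091 at an adjusted p of 0.01, 474 with the covariate, 4505 with DESeq2, 5633 without hydrogel 1 and liquid 2, and 2700 (without hydrogel 2) to 4975 (without liquid 2) when 1 library was left out.

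Same-numbered libraries did not all deviate together (r of 0.22, 0.33, −0.13 and 0.10 for numbers 1 to 4), and the numbers were not taken as pairs. So few values cannot decide whether the libraries were paired. With the replicate number as a block 8 of the 9 genes rose, 0 fell and 4238 genes were called in all. The log2 change of G0s2 was then 0.17, Slc27a6 lost its call (adjusted p = 0.0523) and Acadvl was called lower (adjusted p = 0.0189). Cd36 kept its call in that fit, with a log2 change of 1.33 (adjusted p = 0.00188, edgeR).

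The log2 differences of the ratios were 0.83 for Plin2 over Plin3, 0.99 for Fabp4 over Fabp5 and 2.65 for Lipa over Pnpla2 without hydrogel 1 and liquid 2, each with an exact p of 0.100, which is the smallest that 3 libraries against 3 allow. Without any 1 library the difference for Fabp4 over Fabp5 was 0.67 to 1.01.

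With the covariate, these log2 changes turned in sign: Fabp3 −0.69, Lpl −0.56, Lipa −0.099, Plin3 −0.087, Cd36 −1.19, Angptl4 −0.74, Lipe −0.90, Hilpda −0.44, Dgat2 −2.01, Acsl1 −0.081, Slc27a1 −0.72, Lipn −0.81, Hsd17b11 −0.19, Cpt2 0.39, Slc25a20 0.64, Acadvl 0.20 and Acadm 0.058. So did genes named for their pattern: Rapgef5 −0.52, Icam1 −0.028, Tmem144 −0.37, Adgre1 −0.43, Cdk18 −0.69, Sdc3 −0.26, C3ar1 −0.26, Sdc1 −0.38, Nek6 −0.45, Adam15 −0.018, Camkk2 −0.011, Asb8 0.034 and Icmt 0.083. Apart from Cd36 none of these was called in that fit. The covariate shares 84.9% of its variance with culture.

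Of the genes that did not pass, 4 also turned in sign elsewhere, with log2 changes as follows. Mgll was −0.054 with all libraries, 0.021 with library totals alone, 0.048 without hydrogel 1 and liquid 2, and −0.21 to 0.11 without any 1 library. G0s2 was −0.17, 0.40 with limma-voom, 0.91 without both libraries and −0.53 to 0.83 without any 1. Hilpda was 0.039, −0.015 with upper-quartile scaling and −0.027 to 0.13 without any 1 library. Acsl1 was 0.037, and −0.017 with upper-quartile scaling. The causes were not tested.

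Among the 9 genes depth limits Fabp3 most, at 93 reads over the hydrogel libraries and 26 over the liquid ones. Of the other genes named with a call, Lipg had 20 reads over the hydrogel libraries and 90 over the liquid ones, and Lipn had 117 over hydrogel and 20 over liquid. Acsbg1 had 426 over hydrogel and 77 over liquid, and Slc27a6 had 74 over hydrogel and 186 over liquid.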

Other observations

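Markers of 3 other cell types give the setting in which these genes were read. Among all tested genes 15.1% were higher and 14.1% lower. Mast cell and basophil markers summed to 77.4 to 192 CPM in hydrogel and 138 to 594 CPM in liquid, and 7 of 8 tested fell with a median log2 change of −1.39. Neutrophil markers had 2 of 11 tested higher and 2 lower, or 18.2% each way, near the shares of all tested genes. The median log2 change of these markers was −1.01, and they summed to 390 to 918 CPM in hydrogel and 397 to 1741 CPM in liquid. Endothelial markers, of interest because endothelium anchors lipoprotein lipase, had 2 of 8 tested higher and 3 lower with a median log2 change of −0.16, and summed to 728 to 986 CPM in hydrogel and 815 to 1135 CPM in liquid. Their part in the levels of the 9 genes was not tested.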
